A study of Mus musculus with 6 samples.

Results

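Platelets carry RNA that they inherit from megakaryocytes, and 10 genes known as platelet or megakaryocyte transcripts were followed here across monocyte libraries from mice with and without thrombocytopenia (a low platelet count). The 10 genes are Gp9, Gp6, Itga2b, Clec1b, Treml1, Cd226, Tubb1, Myl9, Nrgn and Ctla2a. They were chosen by symbol from a table of 56832 genes, as platelet-enriched genes other than the chemokine genes Pf4 and Ppbp, and all 10 were found. The choice was made with results of the same comparison known, so their counts and ratios are given as a description with no test. The cells were labelled monocytes of mouse peripheral blood. The 3 DTR libraries came from thrombocytopenic mice of genotype PF4cre-iDTR. There Cre recombinase driven by the Pf4 promoter, active in megakaryocytes, turns on a receptor for diphtheria toxin. The 3 WT libraries came from control mice of wild-type genotype, and diphtheria toxin is listed as the treatment of both groups. Genotype and platelet state thus changed together and cannot be told apart. Strain, sex, age, toxin dose and time are missing from the labels read here. They also do not say if each library is another animal, and the p-values below reflect library-to-library spread alone, which may be technical.

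Megakaryocytes build platelets in the bone marrow by extending long processes along bundles of microtubules and shedding fragments into the blood. Platelets have no nucleus, so their RNA is what the megakaryocyte packed into them, together with receptors for von Willebrand factor, collagen and fibrinogen and granules filled with chemokines and adhesive proteins. Platelets stick to monocytes in blood, and RNA of attached platelets can be isolated along with the monocytes. In bulk RNA, fewer cells of a type and less RNA per cell cannot be told apart.

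The libraries held 29883019 to 37552029 counts in the DTR group and 24842319 to 35955383 in the WT group, so that 3 counts, the floor used below, corresponded to 0.0799 to 0.1004 counts per 1000000 of the library (CPM) in DTR libraries and 0.0834 to 0.121 CPM in WT libraries. The edgeR quasi-likelihood test, run on 12488 genes, passed 45.1% of them at an adjusted p under 0.05: 22.4% were higher and 22.7% lower in the DTR group. The 12 monocyte markers summed to 18920 to 19180 CPM in DTR libraries and 17340 to 17830 CPM in WT libraries, led by Lyz2, Csf1r and Ms4a6c.

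The platelet transcripts were rare in both groups and did not behave as 1 block. Together the 10 genes held 83, 58 and 96 counts in the DTR libraries and 980, 1485 and 1205 in the WT libraries, or 1.94 to 2.69 CPM in DTR libraries and 39.5 to 42.1 CPM in WT libraries. Ctla2a held most of the WT counts. The other members summed to 1.21 to 1.96 CPM in DTR libraries and 13.8 to 15.1 CPM in WT libraries. In 7 of the 10 genes every DTR library lay below every WT library in CPM, and in the other 3, Treml1, Tubb1 and Gp6, the libraries of the groups overlapped. Over the 22611 genes with a count in any library, 16.9% lay below WT in every DTR library, and over the genes tested 26.7% did. Since the members were chosen on this comparison, nothing is read from that difference. The same 7 genes passed the filter on low counts, which a gene can pass through its WT counts alone, while Treml1, Tubb1 and Gp6 did not pass it.

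**Figure D1:**
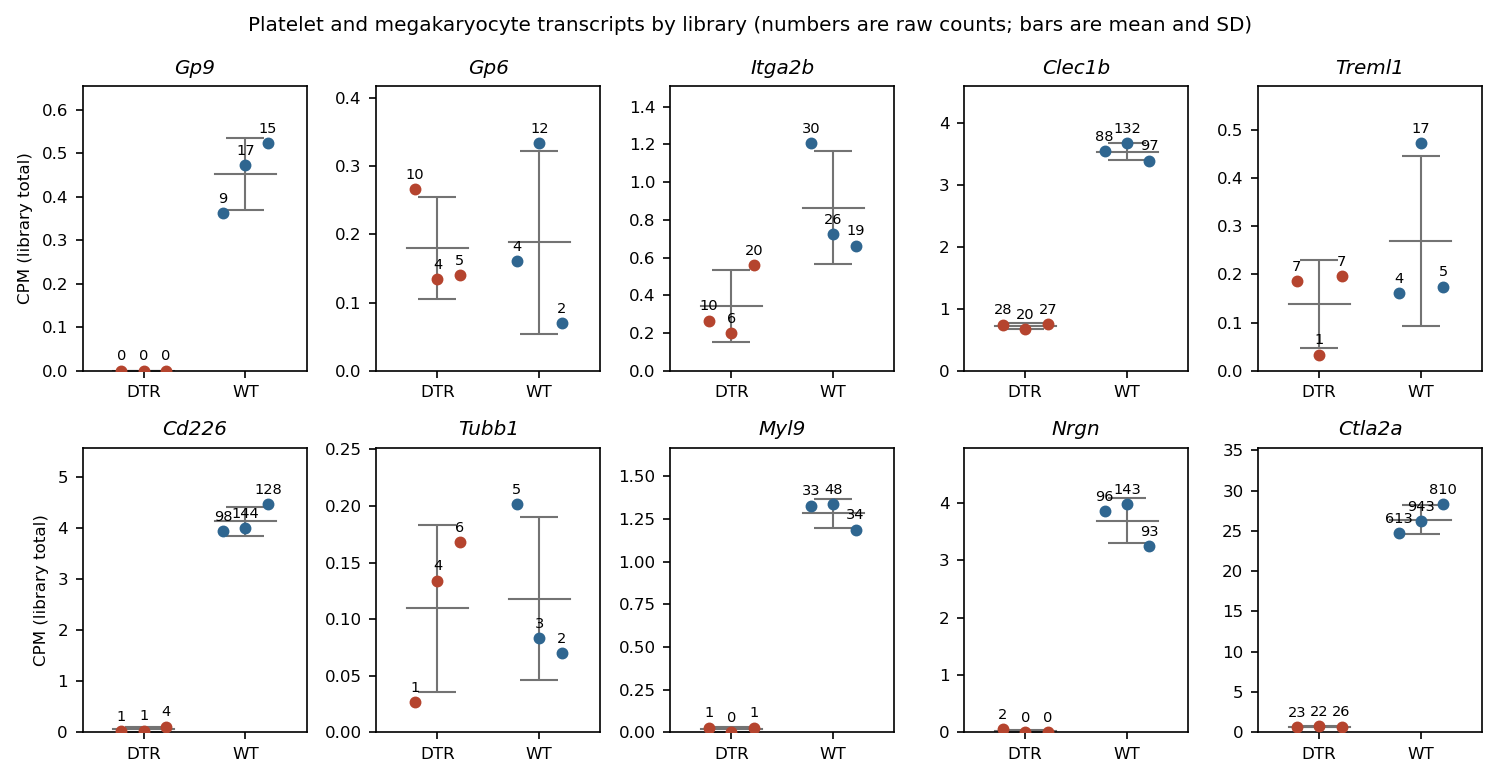
CPM on library totals (vertical axes, each from 0) of the 10 transcripts in the 3 DTR and 3 WT libraries; points are libraries, numbers are raw counts, and grey bars are the group mean and SD. Gp9, Nrgn, Myl9 and Cd226 stayed at 0 to 4 counts in each DTR library, while Gp6, Treml1 and Tubb1 overlapped between the groups.

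Gp9, glycoprotein IX, is a subunit of the receptor complex with which platelets bind von Willebrand factor. It had 0 counts in all 3 DTR libraries, against 9, 17 and 15 counts in the WT libraries (0.453 ± 0.0824 CPM, SD, n = 3). Every DTR library lay below every WT library. With the DTR sum set to the 3-count floor Gp9 was 15.8-fold lower, and its 95% counting interval started at 12.25-fold. With 1 DTR library left out the same floor gave 10.02 to 11.20-fold, and the interval started at 7.79 to 8.70-fold. The genes of the other subunits of the complex were at or near 0 in both groups: Gp1ba had 1 count over the DTR group and 9 over the WT group, a ratio of 10.4 (95% counting interval 1.44 to 455, which here and below covers counting error only, and amplified copies of a molecule are not independent counts), Gp5 had 3 counts over the DTR group and 2 over the WT group, and Gp1bb had no count in any library.

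Itga2b encodes integrin alpha IIb, the chain that joins integrin beta 3 to form the platelet fibrinogen receptor. It had 10, 6 and 20 counts in the DTR libraries and 30, 26 and 19 in the WT libraries. On the CPM scale, which accounts for depth, the groups did not overlap, at 0.342 ± 0.191 CPM in the DTR group and 0.865 ± 0.299 CPM in the WT group, while the raw counts of DTR replicate 3 and WT replicate 3 crossed. Itga2b was 2.40-fold lower in the DTR group (95% counting interval 1.59 to 3.68). Itgb3, the gene of the partner chain, had 24, 17 and 38 counts in the DTR libraries and 37, 49 and 42 in the WT libraries, and fell by 0.90 on the log2 scale (SE 0.25; edgeR adjusted p = 0.00258). DTR replicate 3 was the highest of the DTR libraries in CPM for both chains, and for 6 of the 9 members with any count in that group. Without it Itga2b was 3.53-fold lower (2.04 to 6.50).

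Gp6, glycoprotein VI, is the platelet collagen receptor. It had 10, 4 and 5 counts in the DTR libraries and 4, 12 and 2 in the WT libraries, 19 against 18 in all, and the groups overlapped. The WT over DTR ratio was 1.09, with an interval of 0.541 to 2.20, so a change of up to about that size in either direction was not detectable at this depth. Without WT replicate 2, the library with the most counts, the ratio was 0.609 (0.199 to 1.59). Fcer1g, which encodes the signalling chain that Gp6 pairs with and which is widely expressed in myeloid cells, was at 826 ± 26.1 CPM in the DTR group and 788 ± 19.7 CPM in the WT group (log2 fold change 0.07, SE 0.03; edgeR adjusted p = 0.0250). That call was lost without DTR replicate 2 (log2 fold change 0.04), WT replicate 2 (0.04) or WT replicate 3 (0.07), and with the replicate number as a block.

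Clec1b encodes CLEC-2, the platelet receptor for podoplanin. It had 28, 20 and 27 counts in the DTR libraries and 88, 132 and 97 in the WT libraries. The groups did not overlap, at 0.724 ± 0.0472 CPM in the DTR group and 3.53 ± 0.143 CPM in the WT group, and Clec1b was 4.88-fold lower in DTR (3.78 to 6.36). It kept 75 counts over the DTR group, while Nrgn, Gp9 and Myl9 had 2, 0 and 2 there. In GENCODE M21 its span overlaps that of Clec9a on the same strand, and Clec9a had 7, 7 and 11 counts in the DTR libraries and 11, 20 and 9 in the WT libraries. Treml1 encodes TLT-1, a receptor stored in platelet granules that binds fibrinogen. It had 7, 1 and 7 counts in the DTR libraries and 4, 17 and 5 in the WT libraries, and the groups overlapped. The total of 15 against 26 counts gave a WT over DTR ratio of 2.0 (1.02 to 4.06). That ratio rested on WT replicate 2, without which it was 1.16 (0.447 to 2.82).

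Cd226 encodes DNAM-1, an adhesion receptor of platelets, T cells, natural killer cells and some monocytes. It had 1, 1 and 4 counts in the DTR libraries and 98, 144 and 128 in the WT libraries. Every DTR library lay far below every WT library, at 0.0573 ± 0.0474 CPM in the DTR group and 4.14 ± 0.286 CPM in the WT group, a 71.1-fold lower level in DTR (32.4 to 195). Without DTR replicate 3, which held 4 of the 6 counts, the ratio was 139.5 (38.3 to 1156). Of the 16 markers of T and natural killer cells, the receptor chain genes Cd3d, Cd3e and Cd3g and the genes Ncr1, Prf1, Gzmb and Trbc1 had no count in any library. The 16 markers summed to 0.756 to 1.01 CPM in DTR libraries and 1.37 to 1.82 CPM in WT libraries. Lck, Cd8a and Cd5 led that sum, and Cd8a was the 1 marker of the list that did not overlap between the groups, lower in DTR. The part of T and natural killer cells in the Cd226 counts was not tested.

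The pair of cytoskeletal genes differed from each other. Tubb1, the beta 1 tubulin of the platelet's marginal microtubule band, had 1, 4 and 6 counts in the DTR libraries and 5, 3 and 2 in the WT libraries. These are 11 counts over the DTR group and 10 over the WT group, with overlapping libraries and a WT over DTR ratio of 1.05 (0.399 to 2.72). Myl9, a regulatory light chain of non-muscle and smooth muscle myosin, had 1, 0 and 1 counts in the DTR libraries and 33, 48 and 34 in the WT libraries. Its WT libraries were close to each other, at 1.28 ± 0.0838 CPM, and all lay above the DTR libraries, at 0.0182 ± 0.0158 CPM. The WT over DTR ratio was 66.3, with an interval of 17.95 to 554 that reflects the 2 counts in the DTR group. Its paralogs Myl12a and Myl12b, light chain genes used broadly, share no stretch of 50 bases with the Myl9 transcript. They were at 136 ± 2.90 and 2.71 ± 0.505 CPM in the DTR group and at 123 ± 2.31 and 3.41 ± 0.339 CPM in the WT group; Myl12a rose (log2 fold change 0.15, SE 0.03; edgeR adjusted p = 7.58e-05), and Myl12b, at -0.31, missed the threshold.

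Nrgn encodes neurogranin, a calmodulin-binding protein known from nerve cells, whose RNA is also a platelet marker. It had 2, 0 and 0 counts in the DTR libraries and 96, 143 and 93 in the WT libraries. The WT over DTR ratio was 191 (52.6 to 1587). Both DTR counts lay in replicate 1. Leaving that library out left 0 DTR counts. Nrgn was then 81.2-fold lower at the 3-count floor, and the interval started at 65.65-fold. Without replicate 3 the ratio was 125 (34.4 to 1038).

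Ctla2a encodes a small protein related to the inhibitory propeptide of cathepsins, known in mouse from activated T cells and mast cells. It had 23, 22 and 26 counts in the DTR libraries and 613, 943 and 810 in the WT libraries. At 0.692 ± 0.0691 CPM in the DTR group and 26.4 ± 1.80 CPM in the WT group, it was 38.4-fold lower in DTR (30.4 to 49.4), and the libraries within each group lay close together. Its near copy Ctla2b had 0, 1 and 1 counts in the DTR libraries and 2, 6 and 5 in the WT libraries. Of the 50-base stretches of the Ctla2a transcript, 7.10% also occur in Ctla2b transcripts, and how the counting treated such reads is not given, so that share of the Ctla2a counts is uncertain. Ctla2b was lower in all 3 DTR libraries too, from few counts (ratio 7.496, interval 1.70 to 68.4).

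**Figure D2:**
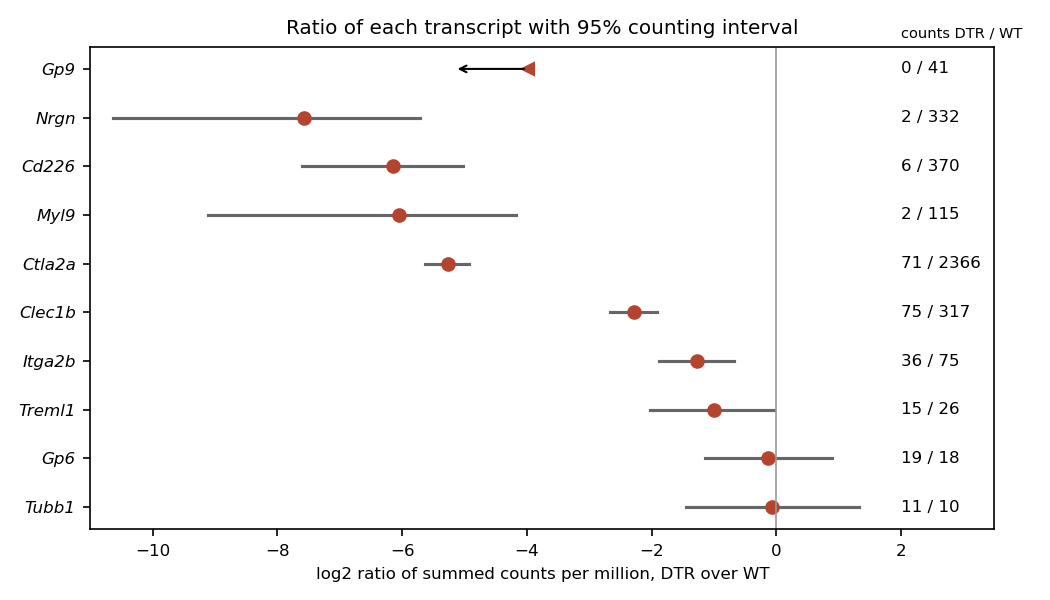
log2 ratio of the summed counts scaled to the group's total, DTR over WT (horizontal axis), for each transcript. Bars are the 95% counting interval, and the summed counts stand at the right. The arrow marks Gp9, with 0 DTR counts, and starts at the ratio given by a floor of 3 counts. Nrgn, Cd226 and Myl9 lie below -6 on this scale, and the intervals of Gp6 and Tubb1 include 0.

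Levels of different genes can be compared only per length, and the scale used here is CPM per kilobase of the longest protein-coding transcript in GENCODE M21. On it, Ctla2a was the highest member in WT libraries at 19.2 ± 1.31 CPM per kilobase, followed by Clec1b at 3.24 ± 0.131 and Nrgn at 2.54 ± 0.271. Myl9 (1.14 ± 0.0743), Cd226 (0.921 ± 0.0636) and Gp9 (0.514 ± 0.0936) came next. Itga2b (0.252 ± 0.0869) and Treml1 (0.218 ± 0.143) overlapped with each other, as did Tubb1 (0.0841 ± 0.0514) and Gp6 (0.0319 ± 0.0227) at the low end. In DTR libraries the order was another one: Clec1b led at 0.664 ± 0.0433 CPM per kilobase and Ctla2a followed at 0.504 ± 0.0503, while Treml1 (0.112 ± 0.0738), Itga2b (0.0996 ± 0.0556) and Tubb1 (0.0779 ± 0.0524) had higher means than Cd226 (0.0128 ± 0.0105) and Nrgn (0.0122 ± 0.0212). The libraries of these low members overlapped in part: in DTR replicate 1, Nrgn was at 0.0367 CPM per kilobase and Tubb1 at 0.0189. The places of Cd226 and Gp6 depend on the transcript chosen, since their protein-coding transcripts run from 408 to 4494 and from 965 to 5900 bases. Across the 3 WT libraries, the coefficient of variation of CPM was below the value that counting alone gives at the mean count for Gp9, Myl9, Clec1b and Cd226, for example 4.05% beside 9.73% for Clec1b. It was above that value for the other 6 members, for example 6.83% beside 3.56% for Ctla2a, 65.4% beside 34.0% for Treml1 and 71.2% beside 40.8% for Gp6.

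Pf4 and Ppbp, which encode chemokines of platelet granules, were higher in the DTR group, unlike the 7 members that lay below WT in every DTR library. Pf4 was at 1133, 1071 and 1073 CPM in the DTR libraries and 914, 953 and 910 CPM in the WT libraries (log2 fold change 0.24, SE 0.03; edgeR adjusted p = 1.07e-11). Ppbp was at 151 ± 2.47 CPM in the DTR group and 95.2 ± 1.78 CPM in the WT group (0.66, SE 0.03; edgeR adjusted p = 4.71e-25). Per kilobase Pf4 stood at 1574 ± 39.8 CPM in WT libraries, against 0.514 for Gp9 and 0.0841 for Tubb1. Pf4 is also the gene whose promoter drives Cre in the DTR mice. Which cells the Pf4 and Ppbp counts of these monocyte libraries came from was not tested.

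Across the whole table, few genes showed the near absence seen for Gp9, Nrgn and Myl9. Of 12327 genes with at least 30 counts summed over the WT group, 12 had at most 3 counts over the DTR group, and Nrgn, Myl9 and Gp9 were 3 of these. The rule follows the pattern of these members, which were chosen on this comparison, so nothing is read from their place among the 12. Cd226, with 6 DTR and 370 WT counts, missed the rule. Its ratio still ranked 6 from the lowest among the 12327 genes, ahead of Myl9 at 7. In the opposite direction none of 12347 genes with at least 30 counts over the DTR group had at most 3 over the WT group. With WT replicate 1, 2 or 3 left out and the minimum of 30 kept, 7, 6 or 7 genes met this rule, a drop that the fixed minimum brings by itself. Besides a predicted gene, the others were Hba-a1, Cyp11a1, Ms4a2, Cpa3, Htr7, Myct1, Ramp3 and Col5a1. Hba-a1, an alpha globin gene of red cells, had 0 counts in every DTR library and 55, 62 and 63 in the WT libraries, at least 69.2-fold lower with the DTR sum set to the same floor, while its near copy Hba-a2 had 2 counts in each group. Cyp11a1, Ms4a2 (the beta chain of the IgE receptor) and Cpa3 (a mast cell and basophil carboxypeptidase) had 1, 1 and 2 counts over the DTR group and 68, 67 and 43 over the WT group.

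**Figure D3:**
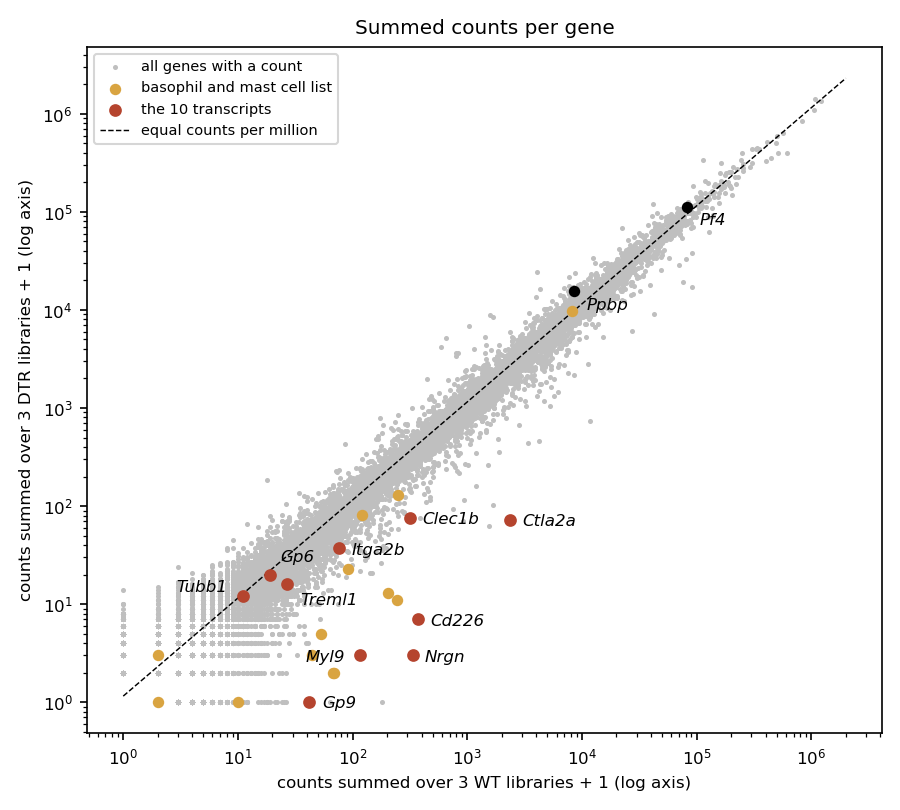
Counts summed over the 3 DTR libraries (vertical) and the 3 WT libraries (horizontal), each plus 1 on a log axis, for every gene with a count; the dashed line marks equal CPM. Nrgn, Gp9, Cd226, Myl9 and Ctla2a lie far below the line beside several basophil and mast cell genes, Gp6 and Tubb1 lie near it, and Pf4 and Ppbp lie above it.

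Markers of other blood cells were lower in some lists and not in others. Of 16 basophil and mast cell markers, 9 were lower in every DTR library than in every WT library, beside 16.9% of all genes with a count, 3 (Mcpt4, Tpsb2 and Cma1) had no count in any library, and Hdc, the gene of the histamine-forming enzyme, held most counts with 94.1 ± 2.80 CPM in the DTR group and 91.5 ± 1.70 CPM in the WT group. The list summed to 94.2 to 100.3 CPM in DTR libraries and 103.5 to 105.7 CPM in WT libraries, and without Hdc it summed to 2.21 to 3.05 CPM in DTR libraries and 12.2 to 13.4 CPM in WT libraries. Kit had 129 counts over the DTR group and 249 over the WT group, and Prss34, a basophil protease gene, had 10 over the DTR group and 244 over the WT group. Several of the 10 genes, Itga2b, Cd226 and Ctla2a among them, are not particular to platelets. The part of basophils in the counts of the 10 genes was not tested.

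The endothelial list (10 genes) summed to 22.8 to 23.9 CPM in DTR libraries and 69.9 to 71.2 CPM in WT libraries. Kdr held nearly all of it, with 1980 counts over the DTR group and 5655 over the WT group, ahead of Pecam1 and Cdh5, while the defining genes Emcn and Cldn5 had none. The 8 progenitor markers, led by Cd34, Kit and Myb, summed to 5.99 to 7.78 CPM in DTR libraries and 9.35 to 11.4 CPM in WT libraries. Mecom had no count. Of 4 tested 3 were lower, beside 22.7% of all genes tested, among them Kit, which is also in the basophil and mast cell list. Myb lay the other way, with 227 counts over the DTR group and 148 over the WT group, and did not pass the test. The 10 erythroid markers summed to 5.19 to 5.54 CPM in DTR libraries and 6.84 to 7.21 CPM in WT libraries, led by Car2, Hba-a1 and Hbb-bt, with Alas2, Epor and Slc4a1 at 0. The 10 neutrophil markers summed to 326 to 338 CPM in DTR libraries and 233 to 249 CPM in WT libraries. Mmp8 carried that sum, at 317 to 325 CPM in DTR libraries and 219 to 233 CPM in WT libraries, and of 6 neutrophil markers tested 1 (Mmp8) was higher and 1 (Ngp) lower, while S100a8 and S100a9, next in counts, did not pass the test. The 8 B cell markers summed to 13.4 to 15.2 CPM in DTR libraries and 11.1 to 13.1 CPM in WT libraries. Ighm carried that sum and was the 1 of 2 tested that was higher, while Cd79b did not pass the test and the other 6, Ebf1 among them, had at most 3 counts in either group, with Vpreb3 at 0. The part of these cells in the platelet transcripts was not tested.

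**Figure D4:**
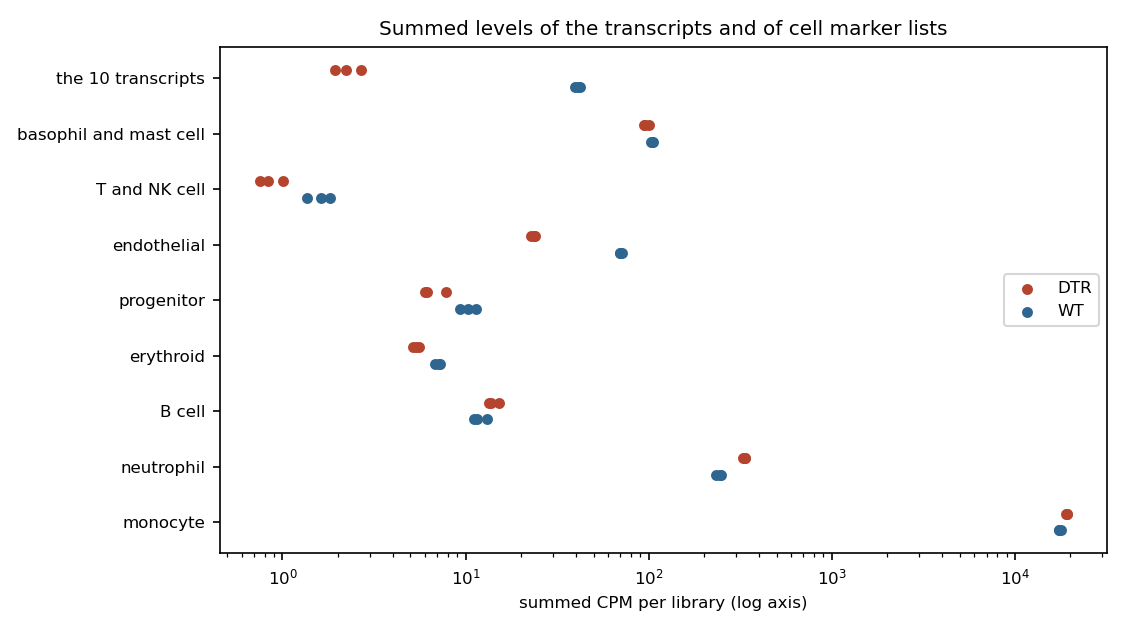
Summed CPM per library (log axis) of the 10 transcripts and of 8 cell marker lists, with DTR libraries above WT libraries in each row and 1 point per library. The 10 transcripts lie at 1.94 to 2.69 CPM in DTR libraries and 39.5 to 42.1 CPM in WT libraries.

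Other platelet and megakaryocyte genes changed in both directions. Of 81 such genes in 5 lists, 58 were tested, of which 20 rose (34.5%, against 22.4% of all genes tested) and 16 fell (27.6%, against 22.7%). With a change of at least 1.5-fold also required, the balance turned, with 3 higher and 8 lower. The same rule over all genes tested also left fewer higher than lower, 350 against 853. The median log2 fold change of the 58 genes was -0.10, beside -0.00079 over all genes tested. The genes differed widely in level. Plek, Flna and Syk, which rose, were at 2661, 2475 and 1034 CPM in the DTR group. Meis1 and Lyl1, which also rose, were at 1.83 and 4.37 CPM there. Of those that fell, Myh9 was at 612 CPM and P2ry12 at 0.916 CPM there. Several listed genes, Syk among them, are also active in myeloid cells, and which cells these counts came from was not tested. Among receptors 5 of 11 tested genes fell and none rose. P2ry12, the platelet ADP receptor that is also found on some macrophages, had 26, 32 and 35 counts in the DTR libraries and 213, 286 and 250 in the WT libraries, a log2 fold change of -3.21 (SE 0.15; edgeR adjusted p = 1.27e-25). The tetraspanin gene Cd9 was at 112 ± 2.08 CPM in the DTR group and 177 ± 2.51 CPM in the WT group (-0.66, SE 0.03; edgeR adjusted p = 9.69e-26), and Itga6 fell by 0.37 on the log2 scale. The junction gene Esam was under the filter and was picked with its values in view. It had 12, 5 and 19 counts in the DTR libraries and 4, 1 and 2 in the WT libraries, the opposite direction to Gp9.

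Of 8 granule protein genes tested 3 were higher (37.5%, against 22.4% of all genes tested) and 3 lower (37.5%, against 22.7%). Pf4 and Ppbp, described above, were among the higher ones. Clu, clusterin, had 1, 6 and 2 counts in the DTR libraries and 19, 23 and 31 in the WT libraries (log2 fold change -3.17, SE 0.47; edgeR adjusted p = 1.20e-07). Vwf, von Willebrand factor, was at 4.57 ± 0.0496 CPM in the DTR group and 6.44 ± 1.07 CPM in the WT group (-0.52, SE 0.11; edgeR adjusted p = 0.000119). Mmrn1, multimerin 1, was under the filter with 4 counts over the DTR group and 29 over the WT group, and was chosen after its values were seen. Signalling genes and enzymes rose in 7 of 15 tested genes (46.7%, against 22.4% of all genes tested) and fell in 2 (13.3%, against 22.7%). Lcp2 (log2 fold change 0.41), Syk (0.38) and Fermt3 (0.21), which act downstream of platelet receptors and in all myeloid cells, rose. Tbxas1, thromboxane synthase, fell by 0.52 on the log2 scale. The lipoxygenase gene Alox12, chosen after its values were seen, also fell. It had 9, 4 and 20 counts in the DTR libraries and 26, 33 and 32 in the WT libraries (-1.66, SE 0.34; edgeR adjusted p = 6.01e-05).

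Cytoskeletal genes rose in 7 of 13 tested genes (53.8%, against 22.4% of all genes tested) and fell in 3 (23.1%, against 22.7%). Vcl, vinculin, was at 290 ± 9.04 CPM in the DTR group and 144 ± 4.78 CPM in the WT group (log2 fold change 1.02, SE 0.03), and Tpm4 rose by 0.23, while Parvb and Actn1 were at -0.59 and -0.34. Of the megakaryocyte transcription factor genes 3 of 11 tested rose and 3 fell (27.3% each, against 22.4% and 22.7% of all genes tested). Meis1 had 53, 68 and 64 counts in the DTR libraries and 31, 36 and 23 in the WT libraries (0.84, SE 0.23), and Mafg rose by 0.16. Runx1 and Etv6 had log2 fold changes of -0.52 and -0.30. Gata1, which megakaryocytes and red cell precursors need, was also chosen after its values were seen and was under the filter with 0, 0 and 1 counts in the DTR libraries and 3, 0 and 0 in the WT libraries. The count in DTR replicate 3 was its only one in that group.

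**Figure D5:**
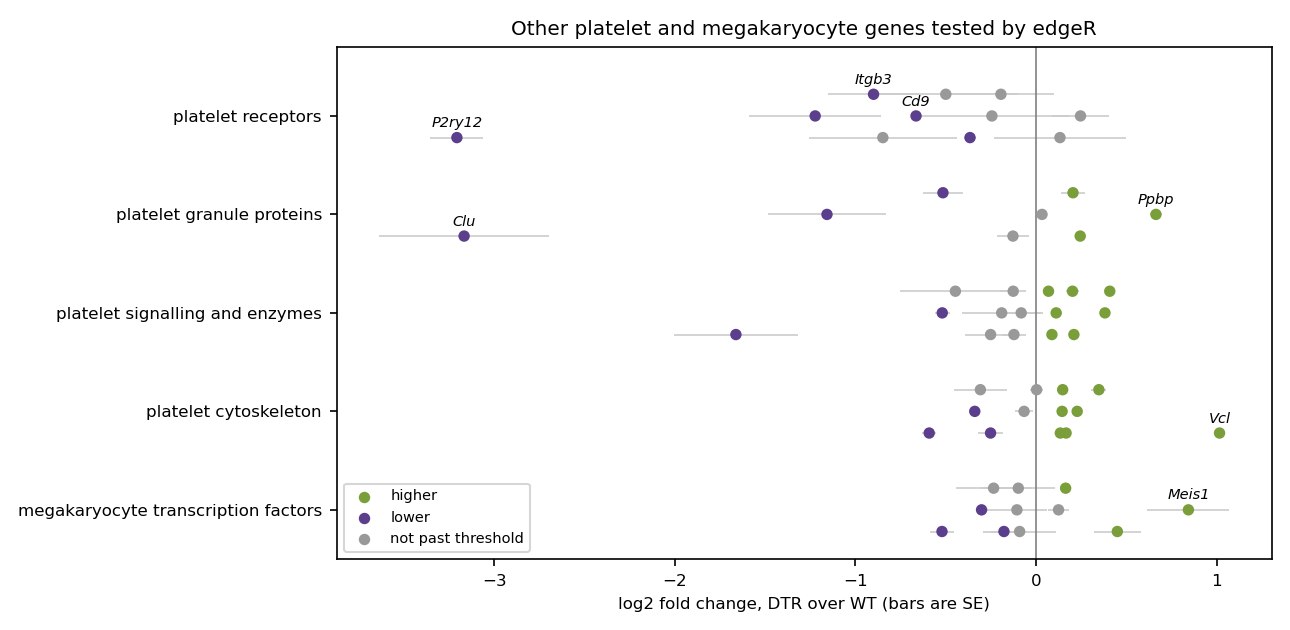
log2 fold change, DTR over WT (horizontal axis; bars are SE), of the 58 other platelet and megakaryocyte genes tested by edgeR, in 5 lists; colours mark an adjusted p under 0.05 by direction. No receptor gene rose, and the other 4 lists hold genes in both directions.

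Promoters of megakaryocyte genes are known for sites of GATA factors beside sites of ETS factors. The RefSeq windows (GRCm38.p6, 250 bases before to 50 after the start) held 9 of the 10 genes, all but Cd226. GATA letters (AGATAA with its variant AGATAG, and TGATAA with its variant TGATAG, either strand) were present for 3 of the 9, Clec1b, Ctla2a and Gp6, and in 29.8% of all 32851 windows. ETS letters (CCGGAAG, with the shorter AGGAAG, either strand) were present for 4 of the 9, Gp9, Ctla2a, Tubb1 and Itga2b, and in 41.2% of all windows. Matches were thus held by Gp6 and Tubb1, near 0 in both groups, and also by Clec1b and Gp9, lower in DTR. Nrgn, Myl9 and Treml1 held neither motif. A match is a description of letters and not a shown binding site. The 250 bases before the start are given for the nearly absent genes Gp9 and Nrgn, for Clec1b and Itga2b, which were lower but still counted, and for Gp6, near 0 in both groups, with matched motifs in capitals, written 5′ to 3′ on the strand of the gene.
Gp9 (chr6:87777820-87778069, plus strand): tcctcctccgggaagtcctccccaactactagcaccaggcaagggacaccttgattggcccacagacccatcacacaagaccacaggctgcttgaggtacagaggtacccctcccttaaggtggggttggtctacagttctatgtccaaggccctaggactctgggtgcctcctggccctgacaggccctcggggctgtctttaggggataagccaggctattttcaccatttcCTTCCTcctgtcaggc
Nrgn (chr9:37552746-37552995, minus strand): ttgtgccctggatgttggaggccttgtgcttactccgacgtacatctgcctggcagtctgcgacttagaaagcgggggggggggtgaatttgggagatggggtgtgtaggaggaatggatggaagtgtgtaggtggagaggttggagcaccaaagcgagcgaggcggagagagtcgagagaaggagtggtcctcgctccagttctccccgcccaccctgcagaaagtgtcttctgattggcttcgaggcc
Clec1b (chr6:129397047-129397296, plus strand): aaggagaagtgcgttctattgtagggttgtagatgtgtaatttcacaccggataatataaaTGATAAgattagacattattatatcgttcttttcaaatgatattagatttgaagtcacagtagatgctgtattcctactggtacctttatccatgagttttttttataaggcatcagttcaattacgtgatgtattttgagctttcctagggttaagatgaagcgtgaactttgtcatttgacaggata
Itga2b (chr11:102469884-102470133, minus strand): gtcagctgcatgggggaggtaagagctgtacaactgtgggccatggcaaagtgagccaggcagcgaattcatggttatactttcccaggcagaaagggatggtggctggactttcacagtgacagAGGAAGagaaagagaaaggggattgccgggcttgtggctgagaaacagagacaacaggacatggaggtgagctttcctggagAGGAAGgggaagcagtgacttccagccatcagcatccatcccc
Gp6 (chr7:4397745-4397994, minus strand): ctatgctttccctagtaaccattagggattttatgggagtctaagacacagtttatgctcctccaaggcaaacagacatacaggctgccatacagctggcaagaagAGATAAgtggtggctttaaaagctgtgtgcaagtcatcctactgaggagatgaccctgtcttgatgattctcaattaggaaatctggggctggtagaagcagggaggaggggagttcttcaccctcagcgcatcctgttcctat
The match of Gp9 starts 16 bases before the start, on the other strand, those of Itga2b 125 and 43 bases before, that of Gp6 144 bases before and that of Clec1b 189 bases before. Itga2b, 2.40-fold lower in DTR, has 2 ETS matches here, while Nrgn, 191-fold lower, has none.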

How the data were processed

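RNA of 6 mouse monocyte libraries, 3 per group, was sequenced from stranded oligo-dT TruSeq libraries on a NovaSeq, per the labels' protocols. The deposited files, 1 per library, hold whole-number read counts per gene symbol, made by the authors. Per the submitters' processing notes, which give no role or order, fastp 0.23.1, STAR 2.7.9a, Subread 2.0.1, featureCounts and Salmon 1.5.2 were used. Neither those notes nor the labels name the genome build, the annotation, the strand setting or the handling of multiply mapped reads.

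The members and gene lists were chosen with earlier results of these data known. Members were described by raw counts and counts per 1000000 of the library total (CPM), with exact conditional 95% intervals for ratios of summed counts, and a floor of 3 counts. All genes were tested with edgeR 4.0.16 (R 4.3.3), using the quasi-likelihood test on TMM-scaled counts after filterByExpr (minimum count 10, total 15), with Benjamini-Hochberg adjustment at 0.05; the CPM means beside those tests are TMM-scaled. On simulated counts of 12350 genes for the DTR and WT comparison, this test recovered 86.7% of genes changed 1.5-fold and 93.9% of those changed 2-fold, with 10 false calls. The simulation gave every gene the same spread and changed far fewer genes than were called here, equally in both directions. These rates may therefore not hold for the real counts.

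Named were all members, the 4 tested genes of each platelet list with the smallest p, partners of a member's protein complex, near copies, Pf4 and Ppbp, the nearly absent genes that are not predicted genes, and the 3 markers with most counts per list. Other genes named were chosen after their values were seen, Myl12a and Myl12b among them. The listed gene Mrvi1 was not found under that symbol. Within groups the libraries correlated at 0.998 (log2 CPM), between groups at 0.990, and no pair of libraries was alike within sampling noise. DESeq2 1.42.0, other scalings, no filter, a fold minimum, a replicate block, leaving out each library, other count minimums and a shorter promoter window were tried as alternatives.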

Additional observations from a re-analysis of the deposited data

How the results depend on the processing

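The count of members lower in every DTR library was 7 with TMM scaling and 7 to 7 when any library was left out, and 6 on raw counts. Requiring also a 1.5-fold change left 350 genes higher and 853 lower over all genes tested, and 3 higher and 8 lower among the other platelet genes, where more genes rose than fell without it; the stricter rule itself lowers the counts. A minimum of 15 WT counts gave 46 nearly absent genes, a minimum of 60 gave 6, and leaving out 1 library gave 6 to 18, a range that follows in part from keeping the count limits while counts were removed. Leaving out 1 library gave 2420 to 2741 genes higher, 2564 to 2686 lower, and among the other platelet genes 20 to 21 higher and 14 to 17 lower. DESeq2 called 2373 genes higher and 2347 lower, and 20 and 15 of the other platelet genes. Of 231 refits of the named genes tested, 227 kept direction and call, 4 (all of Fcer1g) lost the call and 0 reversed.

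The replicate numbers did not pair the libraries. Same-numbered libraries correlated at -0.0437, -0.118 and -0.0297 in their deviations from the group means, and no library correlated best with its own number. With the replicate number as a block, 2675 genes were higher and 2723 lower, and among the other platelet genes 19 and 15.

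Depth limits what the members show. With 10 to 26 counts per group, Gp6, Tubb1 and Treml1 carry intervals that allow changes of about the size of their ratios' bounds, and the folds of Nrgn, Myl9 and Cd226 rest on 2, 2 and 6 DTR counts. The groups differ in genotype, and cell numbers and RNA per cell cannot be told apart.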
